A study of Mus musculus with 8 samples.

Results

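The 10 genes described here encode the enzymes and proteins that place, read and remove N6-methyladenosine (m6A), the most common internal modification of messenger RNA. They are the catalytic pair *Mettl3* and *Mettl14*, the regulatory subunits of the methyltransferase complex *Wtap*, *Virma*, *Zc3h13*, *Cbll1* and *Rbm15*, the readers *Ythdc1* and *Ythdf2*, and the demethylase *Alkbh5*. They were chosen by name for their place in this pathway, and each was matched by its Ensembl identifier to 1 row among the 45706 gene identifiers of the count table. All 10 passed the filter on low counts that left 15491 genes to be tested.

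In the nucleus, METTL3 transfers the methyl group from S-adenosylmethionine to adenosine and METTL14 holds the RNA. WTAP, VIRMA, ZC3H13, CBLL1 and RBM15 place this pair on its targets, with VIRMA as the large scaffold that also contacts factors of cleavage and polyadenylation. Reader proteins with a YTH domain then bind the mark. YTHDC1 acts in the nucleus on splicing and export and is known to work with SR proteins, and YTHDF2 takes marked mRNA to decay in the cytoplasm. In the liver the mark is known to act on mRNAs of lipid metabolism and of the circadian clock. The study asked about SRSF10 in the polyadenylation of mRNA in fatty liver, and the comparison here is of the RNA of the m6A genes between livers given an shRNA to *Srsf10* and controls.

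RNA-seq was made from the livers of 8 male mice of the strain written as C56B6/J in the labels, 4 labelled *Srsf10-kd* and 4 labelled *Ctrl*. All were injected at 6 weeks of age with an adeno-associated virus (AAV) in which the chicken β-actin promoter drives GFP and a mirE/shRNA, directed at *Srsf10* in the first group and a control hairpin in the second, which the labels call WT. Both groups began a diet with 60% of calories from fat 4 weeks later and were fed it for 12 weeks, so no liver on control diet stands beside them. The liver is a mixed tissue, and this promoter is not restricted to hepatocytes.

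Gene counts summed to 50456404 to 59697241 reads in a liver. *Srsf10* itself, the targeted gene, was at 34.3, 34, 41.0 and 36.5 CPM (read counts scaled to a common library total) in *Srsf10-kd* livers 1 to 4 and at 31.6, 33.7, 35.3 and 30.9 CPM in *Ctrl* livers 1 to 4, so that the *Srsf10-kd* group did not have less of its RNA (log2 fold change 0.15). The adjusted p was 0.378 in edgeR, here always its quasi-likelihood test adjusted by Benjamini-Hochberg across every gene tested, and the groups are named by their labels alone. All 7 hepatocyte markers had reads, 5 with lower and 2 with higher fitted values and none past the test, with a summed level of 95055 to 113081 CPM in the *Srsf10-kd* group and 79119 to 105933 CPM in the *Ctrl* group. The slope of log2 level on log2 transcript length ran from -0.19 to -0.02 in the *Srsf10-kd* livers and from -0.03 to 0.14 in the *Ctrl* livers, with *Srsf10-kd* 3 at -0.19 and *Ctrl* 3 at -0.03, both the lowest of their groups. Longer transcripts therefore had lower values in the first group, and 9 of the 10 m6A genes have a longest coding transcript above the median of the tested genes, 2841 bases. The summed levels of the macrophage, stellate, endothelial, lymphocyte and neutrophil markers also overlapped between the groups. The summed level of 5 cholangiocyte markers did not, at 46.5 to 68.6 CPM in the *Srsf10-kd* livers against 31.4 to 39.1 CPM in the *Ctrl* livers. All 5 cholangiocyte markers had higher fitted values, none past the test. The part of these cells and of transcript length in each result below was not tested, beyond the values given with the length trend removed.

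Per length of their longest coding transcript, the m6A genes spanned a wide range of levels. The demethylase *Alkbh5* was at 14.4 ± 1.70 CPM per kb (SD, n = 8 livers) and the nuclear reader *Ythdc1* at 11.8 ± 0.604 CPM per kb. The adaptor *Wtap* followed at 8.65 ± 0.435 CPM per kb and the cytoplasmic reader *Ythdf2* at 6.94 ± 0.228 CPM per kb. The catalytic subunit *Mettl3* was at 5.85 ± 0.703 CPM per kb, while its partner *Mettl14* was the lowest of the 10 at 0.945 ± 0.0685 CPM per kb.

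Between them lay *Zc3h13* at 4.54 ± 0.802, *Virma* at 3.35 ± 0.779, *Rbm15* at 2.90 ± 0.367 and *Cbll1* at 2.31 ± 0.176 CPM per kb. The ranges over the 8 livers did not overlap between *Ythdc1* and *Wtap*, between *Wtap* and *Ythdf2*, or between *Cbll1* and *Mettl14*, and each other pair of neighbours in this order overlapped. With all annotated exonic bases as the length, *Ythdc1* moved from place 2 to place 6, at 2.83 CPM per kb, while *Alkbh5* stayed first and *Mettl14* last. Most of the order between them changed, with *Ythdf2* at place 2, *Zc3h13* at 3, *Wtap* at 4, *Virma* at 5 and *Mettl3* at 7. The order of *Ythdc1*, *Wtap* and *Ythdf2* was then reversed without overlap, at 2.59 to 3.07, 4.12 to 4.80 and 5.93 to 6.60 CPM per kb. Related genes outside the 10 were at 17.6 CPM per kb for the reader *Ythdf3*, 9.59 for *Ythdf1*, 6.08 for the other demethylase *Fto*, 1.96 for *Rbm15b* and 1.21 for *Ythdc2*.

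**Figure D1:**
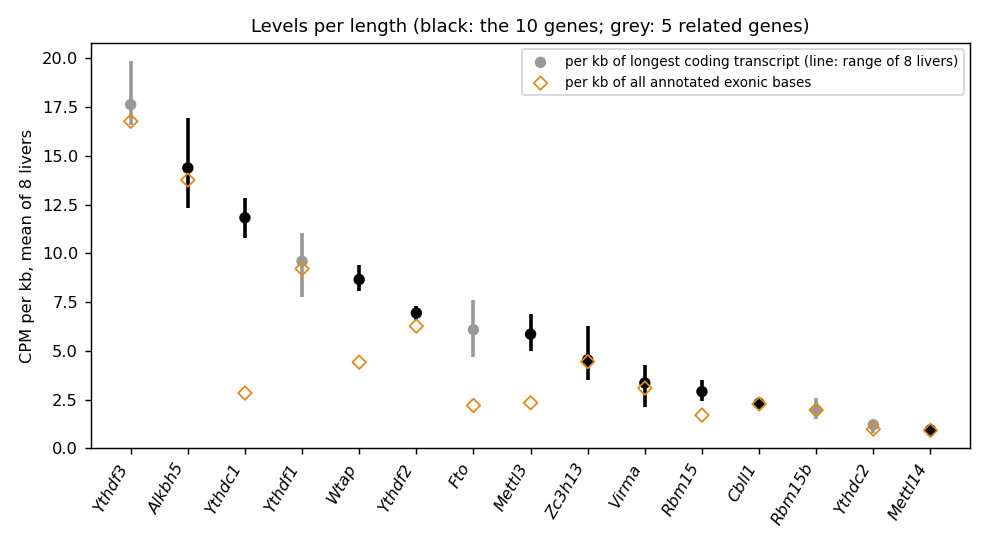
Mean level over 8 livers in CPM per kb (vertical axis, linear) for the 10 m6A genes (black) and 5 related genes (grey), with lines for the range over the livers and diamonds for the mean per kb of all annotated exonic bases. Among the 10 genes *Alkbh5* is highest at 14.4 and *Mettl14* lowest at 0.945 CPM per kb with either length, and *Ythdc1* depends most on the length used.

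*Virma* was the gene of the 10 that differed most between the groups, except with the length trend removed, where *Zc3h13* differed more (0.51 against -0.36). *Virma* (ENSMUSG00000040720) spans bases 11485958 to 11550684 of chromosome 4 (GRCm38, forward strand) and has 25 exons in its longest coding transcript of 6571 bases. None of its annotated exons overlaps another gene and it shares no 75-base stretch with the transcripts of other genes (0%), so its count does not hinge on how shared reads were assigned. Its level was 17.8, 19.5, 14.0 and 18.8 CPM in *Srsf10-kd* livers 1 to 4, from 722 to 1056 reads. In *Ctrl* livers 1 to 4 it was 25.0, 27.4, 25.7 and 27.9 CPM. Each *Srsf10-kd* liver lay below each *Ctrl* liver, with *Srsf10-kd* 3 the lowest of all.

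The means of *Virma* were 17.5 ± 2.42 CPM (SD, n = 4) in the *Srsf10-kd* group and 26.5 ± 1.36 CPM (SD, n = 4) in the *Ctrl* group. The log2 fold change was -0.60 (standard error 0.12, 95% interval -0.86 to -0.33), and edgeR gave an unadjusted p of 0.000531 and an adjusted p of 0.0935. *Virma* was thus not past adjusted p 0.05 in this test, in which it ranked 83 of 15491 genes by p. DESeq2, the tool the study used, gave an adjusted p of 0.00184 with a log2 fold change of -0.60, and limma-voom gave 0.00727 with -0.53. The two-sided exact permutation test of log2 CPM over the 70 assignments of the livers gave p = 0.0286, the smallest that 4 livers against 4 allow.

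*Virma* is long, and longer transcripts were lower in the *Srsf10-kd* livers. When the dependence of level on transcript length was taken out of each library, edgeR put *Virma* at -0.36 (95% interval -0.58 to -0.14), with an unadjusted p of 0.00456 and an adjusted p of 0.199. *Ctrl* 3, whose slope on transcript length fell within the range of the *Srsf10-kd* livers, had 25.7 CPM of *Virma*, inside the range of the other *Ctrl* livers, which is the value of 1 liver and does not settle the part of transcript length in the difference. Without *Srsf10-kd* 3, the liver with the steepest slope, the log2 fold change was -0.50 (adjusted p = 0.0531), without *Ctrl* 3 it was -0.61 (adjusted p = 0.0429), and without both it was -0.52 (adjusted p = 0.0131), all from edgeR.

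**Figure D2:**
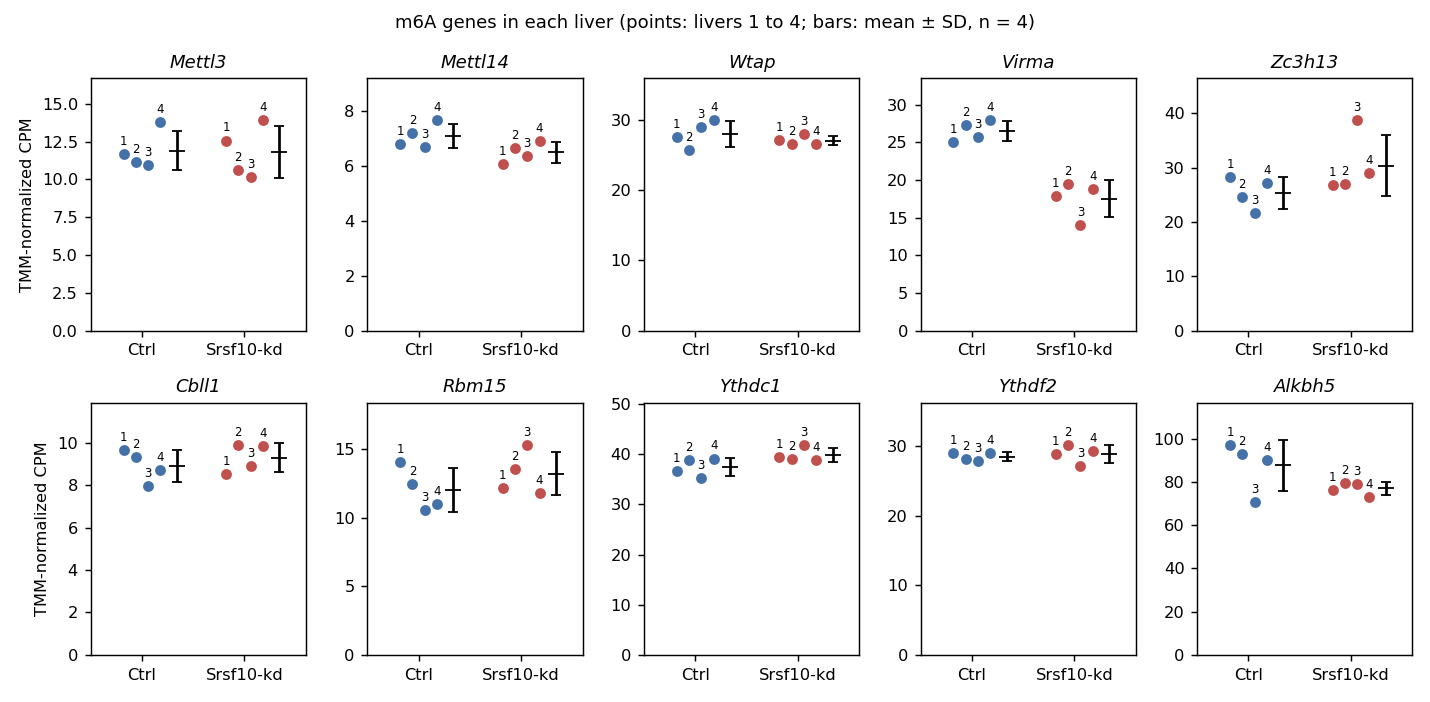
Level of each of the 10 m6A genes in TMM-normalized CPM (vertical axes, linear from 0) in the *Ctrl* livers (blue) and the livers labelled *Srsf10-kd* (red). Points are livers with their replicate number, and bars are the mean ± SD of 4 livers. *Virma* is the gene whose groups do not overlap, at 14.0 to 19.5 against 25.0 to 27.9 CPM.

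The catalytic subunits showed smaller differences. *Mettl3* (chromosome 14 from 52294841 to 52305128, reverse strand) was at 12.6, 10.6, 10.1 and 13.9 CPM in *Srsf10-kd* livers 1 to 4. In *Ctrl* livers 1 to 4 it was at 11.7, 11.1, 11 and 13.8 CPM. The ranges lay almost on each other, and the log2 fold change was -0.01 with a 95% interval of -0.31 to 0.29 (adjusted p = 0.971, edgeR), its sign differing between tools. Of its annotated exonic bases 18.4% overlap *Tox4* on the opposite strand, and since the strand setting of the counting is not given in the sources used here, part of its count is uncertain.

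*Mettl14* (chromosome 3 from 123368297 to 123386108, reverse strand), the RNA-binding partner of METTL3, was at 6.07, 6.67, 6.36 and 6.93 CPM in *Srsf10-kd* livers 1 to 4. In *Ctrl* livers 1 to 4 it was at 6.82, 7.21, 6.70 and 7.67 CPM. The *Srsf10-kd* values were lower on average, but the groups overlapped. The log2 fold change was -0.13 with a 95% interval of -0.37 to 0.11 (adjusted p = 0.480, edgeR), and 0.14 with the length trend removed.

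Of the other regulatory subunits, *Wtap* (chromosome 17 from 12966796 to 12994169), which keeps the complex in nuclear speckles, was at 27.1, 26.6, 28 and 26.6 CPM in the *Srsf10-kd* livers. In the *Ctrl* livers it was at 27.7, 25.7, 29.0 and 30.0 CPM, a range that encloses the first group. Its log2 fold change was -0.05 with a 95% interval of -0.25 to 0.15.

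*Zc3h13* (chromosome 14 from 75284373 to 75344426), a zinc-finger protein that holds the complex in the nucleus, was at 26.8, 27.0, 38.7 and 29.0 CPM in *Srsf10-kd* livers 1 to 4. In *Ctrl* livers 1 to 4 it was at 28.2, 24.6, 21.7 and 27.2 CPM. *Srsf10-kd* 3 was the highest and *Ctrl* 3 the lowest of the 8, and the groups overlapped. The log2 fold change was 0.26 with a 95% interval of -0.06 to 0.58 (adjusted p = 0.302, edgeR). It was 0.12 without *Srsf10-kd* 3, 0.05 without both *Srsf10-kd* 3 and *Ctrl* 3, and 0.51 with the length trend removed, where the unadjusted p was 0.0102 and the adjusted p 0.223.

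*Rbm15* (chromosome 3 from 107325421 to 107333673), an RNA-binding protein that directs the complex to its targets, was at 11.8 to 15.3 CPM in the *Srsf10-kd* livers and 10.6 to 14.0 CPM in the *Ctrl* livers, with a log2 fold change of 0.14 (95% interval -0.15 to 0.43). It was 0.06 without *Srsf10-kd* 3, 0.08 without *Ctrl* 3, 0.22 without *Ctrl* 1, 0.0013 without both *Srsf10-kd* 3 and *Ctrl* 3, and 0.28 with the length trend removed. *Cbll1* (chromosome 12 from 31484829 to 31499616), a RING-finger protein also called HAKAI, was at 8.54 to 9.90 CPM and 7.96 to 9.65 CPM, with a log2 fold change of 0.06 (95% interval -0.18 to 0.31) and 0.17 with the length trend removed. The groups overlapped for both. Of the exonic bases of *Cbll1*, 17.6% overlap Gm29542 on the opposite strand, so part of its count is uncertain.

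Both readers were close to level. *Ythdc1* (chromosome 5 from 86804221 to 86836659) was at 39.5, 39.0, 41.9 and 38.9 CPM in *Srsf10-kd* livers 1 to 4 and at 36.6, 38.8, 35.3 and 39.2 CPM in *Ctrl* livers 1 to 4. The highest *Ctrl* value exceeded 2 of the *Srsf10-kd* values, and the log2 fold change was 0.09 with a 95% interval of -0.11 to 0.28 (adjusted p = 0.540, edgeR). *Ythdf2* (chromosome 4 from 132184912 to 132212303) varied least of the 10 over the 8 livers, with a coefficient of variation of 3.28%. It was at 27.1 to 30.2 CPM in the *Srsf10-kd* livers and 27.8 to 29.0 CPM in the *Ctrl* livers, with a log2 fold change of 0.02 and a 95% interval of -0.17 to 0.21. With the length trend removed both readers were at 0.14.

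*Alkbh5* (chromosome 11 from 60536381 to 60558512), which removes the mark in the nucleus, was at 76.3, 79.4, 79.3 and 73.2 CPM in *Srsf10-kd* livers 1 to 4. In *Ctrl* livers 1 to 4 it was at 97.2, 92.7, 70.7 and 90.3 CPM. *Ctrl* 1, 2 and 4 lay above every *Srsf10-kd* liver, and *Ctrl* 3 lay below them all. The log2 fold change was -0.19 with a 95% interval of -0.45 to 0.07 (adjusted p = 0.344, edgeR). Without *Ctrl* 3 it was -0.28, with an unadjusted p of 0.0142 and an adjusted p of 0.111, and with the length trend removed it was 0.03.

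By count, 0 of the 10 genes had an adjusted p under 0.05 in edgeR, where 0.071% of all genes tested passed. *Virma* alone had an unadjusted p under 0.05 in that test, against 21.8% of all genes. DESeq2 and limma-voom each called *Virma* and no other of the 10 at adjusted p 0.05, against 5.27% of genes tested by DESeq2 (3.25% lower and 2.02% higher) and 11.7% by limma-voom (6.68% lower and 5.03% higher). The groups did not overlap for 1 of the 10, and for 14.3% of all genes (7.53% with the *Srsf10-kd* livers lower and 6.73% with them higher). Fitted values were lower for 5 and higher for 5, beside 48.7% of all genes lower, and their median on the log2 scale was 0.0044 beside 0.01 over all genes. With the length trend removed, 3 were lower and 7 higher, beside 49.4% of all genes lower, and their median was 0.14 beside 0.0033 over all genes. In that fit 2 of the 10, *Virma* and *Zc3h13*, had an unadjusted p under 0.05, against 14.9% of all genes. With 10 genes, 1 gene is 10% of the set, so none of the shares called or not overlapping sets the 10 apart from all genes. Whether the directions and medians of the 10 differ from those of all genes was not tested.

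**Figure D3:**
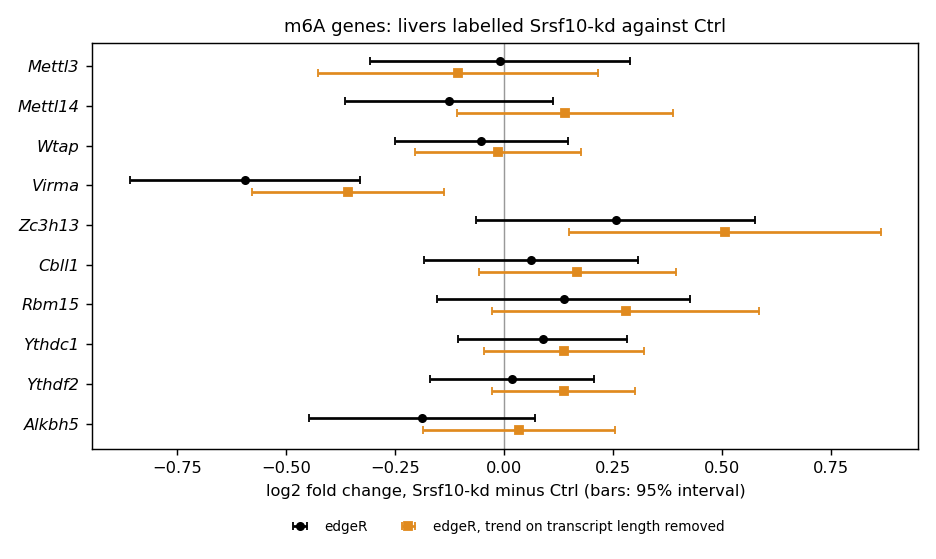
Log2 fold change, *Srsf10-kd* minus *Ctrl* (horizontal axis), of the 10 m6A genes with 95% intervals from edgeR (black circles) and from edgeR after the length trend of each library was removed (orange squares), 4 livers per group. *Virma* lies below 0 in both fits, at -0.60 and -0.36, and the black intervals of the other 9 genes include 0. The orange interval of *Zc3h13*, at 0.51 (0.15 to 0.87), also excludes 0, on the other side.

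The ratio of 2 genes in the same liver does not depend on the scaling between libraries, so 4 ratios were compared. The log2 ratio of *Virma* to *Wtap* counts was -0.60, -0.45, -0.99 and -0.50 in *Srsf10-kd* livers 1 to 4. In *Ctrl* livers 1 to 4 it was -0.14, 0.09, -0.17 and -0.10. The groups did not overlap, and their means of -0.64 ± 0.25 and -0.08 ± 0.12 (SD, n = 4) differed by -0.55 (two-sided exact permutation test, p = 0.0286, adjusted p = 0.114 over the 4 ratios). With the length trend removed this difference was -0.35 (adjusted p = 0.0571, exact permutation test). This ratio holds the same *Virma* counts as above and *Wtap* differed little (log2 fold change -0.05), so it is not an independent result.

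The log2 ratio of *Zc3h13* to *Wtap* was 0.15 ± 0.22 in the *Srsf10-kd* livers and -0.15 ± 0.19 in the *Ctrl* livers, a difference of 0.30 with overlapping groups (exact permutation test, p = 0.0857, adjusted p = 0.171). It was 0.19 without *Srsf10-kd* 3 and 0.49 with the length trend removed (adjusted p = 0.0571, exact permutation test). That of *Mettl14* to *Mettl3* was -0.85 ± 0.21 and -0.74 ± 0.09 (adjusted p = 0.400, exact permutation test), and that of *Alkbh5* to *Mettl3*, remover to writer, 2.71 ± 0.27 and 2.88 ± 0.21 (adjusted p = 0.400, exact permutation test). The groups overlapped for both of these ratios, whose means differed by -0.11 and -0.16.

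**Figure D4:**
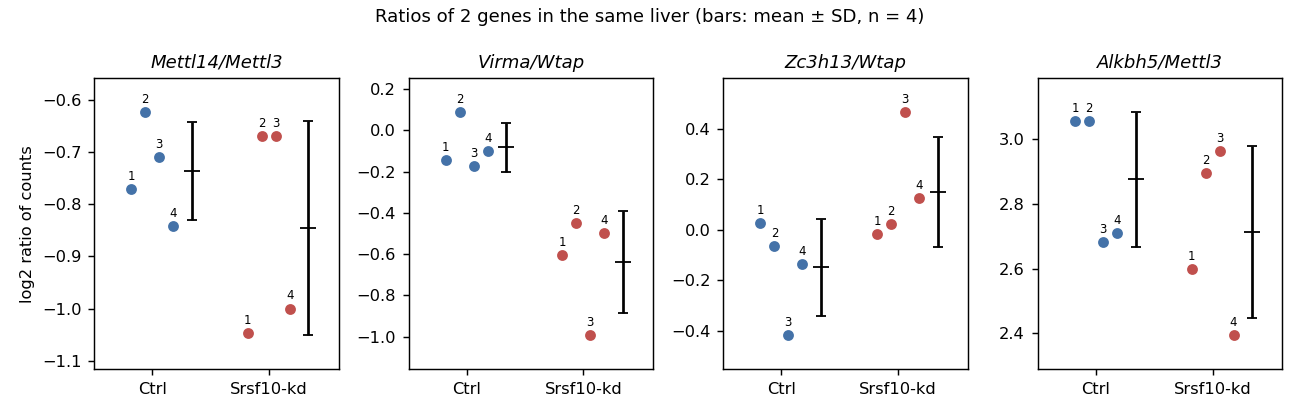
Log2 ratio of the counts of 2 m6A genes in the same liver (vertical axes), in *Ctrl* (blue) and *Srsf10-kd* livers (red), with replicate numbers and bars for the mean ± SD of 4 livers. The *Virma*/*Wtap* ratio is the one whose groups do not overlap, with means of -0.64 and -0.08.

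The genes whose pattern over the 8 livers was nearest to that of *Virma*, among 8116 others with a mean log2 CPM of at least 3, were *Akap11*, *Zkscan8*, *Ago3*, *Atp6v0a2* and *Ppp6r3*. The measure was the root mean square difference of log2 CPM after each gene was centred on its mean. It ran from 0.04 for *Akap11* to 0.08 for *Ppp6r3*, beside a median of 0.37 over the 8116 genes. Their log2 fold changes, which the choice by likeness over the same livers ties to that of *Virma*, were -0.58, -0.67, -0.52, -0.54 and -0.49, and their longest coding transcripts had 4952 to 15595 bases. Among the 10 m6A genes the distance from *Virma* ran from 0.27 for *Mettl14* to 0.52 for *Zc3h13*, where a gene at the same level in every liver would be at 0.33.

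A further 31 genes of the pathway were listed by role, namely other methyltransferases, the demethylase *Fto*, other readers, partner proteins and genes of S-adenosylmethionine metabolism. The filter left 29 of these, since the readers *Igf2bp1* and *Igf2bp3* were at 0.08 CPM or less in each liver. In edgeR 0 of the 29 passed adjusted p 0.05. Fitted values fell below 0 for 16 and above 0 for 13 (median -0.03), beside 48.7% of all genes below 0 (median 0.01). An unadjusted p under 0.05 was found for 5 (*Mettl4* and *Cnot1* lower, *Mettl5*, *Trmt112* and *Hnrnpa2b1* higher), beside 21.8% of all genes. Of these *Mettl5* is named only because its value was seen. Once the length trend was removed, 9 fell below 0 and 20 above (median 0.08), beside 49.4% of all genes below 0 (median 0.0033). In that fit 3 of the 29 had an unadjusted p under 0.05, beside 14.9% of all genes. Whether the directions of the 29 differ from those of all genes was not tested. DESeq2 called 3 of the 29 at adjusted p 0.05 (*Mettl4*, *Cnot1* and *Hnrnpa2b1*), beside 5.27% of all genes, and limma-voom 4, those and *Mettl5*, beside 11.7%.

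*Mettl4* encodes a methyltransferase of the same fold that modifies a spliceosomal small nuclear RNA. It was at 3.14, 3.52, 1.91 and 2.78 CPM in *Srsf10-kd* livers 1 to 4 and at 4.69, 4.99, 4.75 and 4.92 CPM in *Ctrl* livers 1 to 4. The groups did not overlap, and the difference on the log2 scale was -0.77 (standard error 0.18, adjusted p = 0.115 by edgeR, 0.00584 by DESeq2 and 0.00953 by limma-voom). With the length trend removed it was -0.54 (adjusted p = 0.212), and without both *Srsf10-kd* 3 and *Ctrl* 3 it was -0.63 (adjusted p = 0.0271).

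*Cnot1* encodes the scaffold of the CCR4-NOT deadenylase, through which YTHDF2 removes mRNA. It was at 66.7, 65.9, 37.3 and 54.3 CPM in *Srsf10-kd* livers 1 to 4 and at 97.4, 102.7, 65.3 and 115.7 CPM in *Ctrl* livers 1 to 4. The groups overlapped through *Ctrl* 3, which lay below *Srsf10-kd* 1 and 2. On the log2 scale the difference was -0.77 (adjusted p = 0.131 by edgeR, 0.03 by DESeq2 and 0.0132 by limma-voom). It was -0.91 without *Ctrl* 3 (adjusted p = 0.0471) and -0.47 with the length trend removed (adjusted p = 0.223), both from edgeR.

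*Hnrnpa2b1*, a nuclear RNA-binding protein proposed as a reader, was at 384.6 to 426.4 CPM in the *Srsf10-kd* livers and 310.1 to 348.9 CPM in the *Ctrl* livers, without overlap. On the log2 scale it differed by 0.26 (adjusted p = 0.179 by edgeR, 0.0459 by DESeq2 and 0.0432 by limma-voom), and 0.12 with the length trend removed. *Mettl5* and its cofactor *Trmt112*, which methylate ribosomal RNA, had log2 fold changes of 0.29 and 0.43, the second 0.29 without *Srsf10-kd* 3. With the length trend removed these were 0.0071 and 0.13, and 46.6% of the 75-base stretches of *Trmt112* transcripts occur in other genes, so its count is uncertain.

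The paralogs and counterparts of the 10 genes did not pass the test. *Fto* was at 26.7 ± 2.75 CPM (SD, n = 4) in the *Srsf10-kd* livers and 30.6 ± 6.04 CPM in the *Ctrl* livers, a log2 fold change of -0.20 with a 95% interval of -0.54 to 0.15. Without *Ctrl* 3 it was -0.33, with an unadjusted p of 0.0155 and an adjusted p of 0.115 in edgeR, and with the length trend removed it was -0.03. For *Rbm15b*, *Ythdf1*, *Ythdf3* and *Ythdc2* the log2 fold changes were 0.02, 0.17, -0.08 and -0.28, and 0.26, 0.22, 0.09 and -0.03 with the length trend removed. Of the partners, *Rida*, a binding partner of YTHDF2, had the highest level at 871 ± 180 and 684 ± 169 CPM (SD, n = 4), with a log2 fold change of 0.35 and overlapping groups. It was 0.20 without *Srsf10-kd* 3 and 0.07 with the length trend removed. Of the genes of S-adenosylmethionine metabolism, *Mat1a*, the synthetase of adult liver, was at 4441 ± 980 and 5611 ± 1830.3 CPM. *Mat2b* was at 42.0 ± 5.23 and 37.1 ± 1.65 CPM, and the groups overlapped for both.

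**Figure D5:**
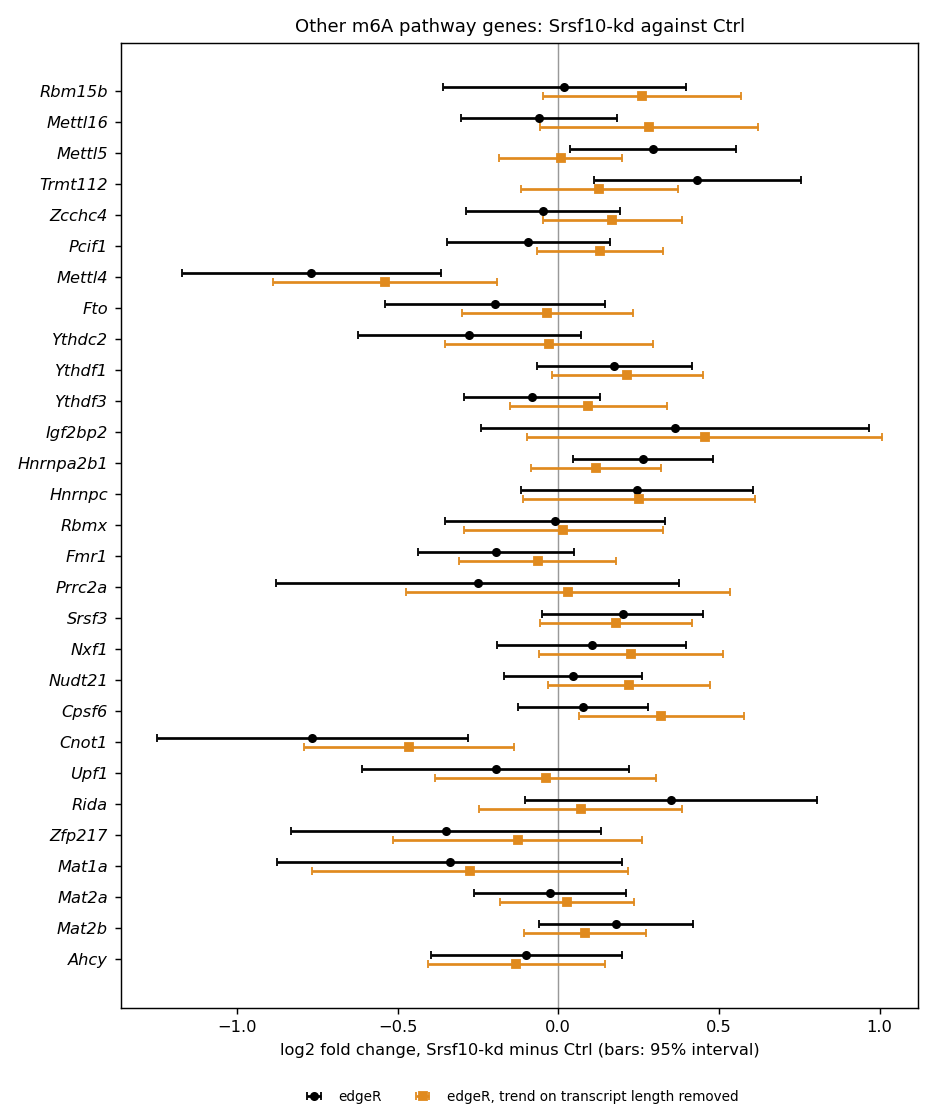
Log2 fold change, *Srsf10-kd* minus *Ctrl* (horizontal axis), of the 29 other pathway genes tested, with 95% intervals from edgeR (black circles) and from edgeR with the trend on transcript length removed (orange squares), 4 livers per group. *Mettl4* and *Cnot1* lie farthest below 0, at -0.77 each, and move to -0.54 and -0.47 with the trend removed.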

How the data were processed

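Poly(A) RNA of 8 livers (4 per group) was sequenced from both ends with a directional kit. The authors deposited raw counts per gene from STAR 2.7.7a on GRCm38, not normalized. The annotation release and strand column are not given in the sources used here. No 2 columns were duplicates (in 28 pairs the smallest chi-square was 46.3 times its degrees of freedom).

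Symbols, positions, exon overlaps and shared 75-base stretches came from GENCODE M21 (45143 identifiers matched). Counts were tested in R 4.3.3 with edgeR 4.0.16 (TMM, filterByExpr, condition alone, two-sided quasi-likelihood test, Benjamini-Hochberg over 15491 genes). Levels are TMM-scaled CPM, with a prior count of 2 for log2 levels. Intervals are 95% from the fit's standard error. Alternatives were DESeq2 1.42.0, limma 3.58.1 (voom with quality weights), other scalings and filters, each liver left out, the replicate number as a block, and offsets from each library's lowess trend (span 0.5) on transcript length or GC content (99.6% of tested genes had a length). Leaving out both *Srsf10-kd* 3 and *Ctrl* 3 was chosen after the data were seen. Scripts were tested on simulated counts.

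The 10 genes, the pathway lists and these tests were chosen with earlier results of these data known. Named beside the 10 genes were *Srsf10*, their paralogs and counterparts, and in each role list the gene of smallest p and of highest level. The livers are separate samples by their labels, and p-values measure the spread between them. Fewer cells of a type and less RNA per cell cannot be told apart in bulk tissue. Polyadenylation and splicing, which need reads, were not analysed here, nor was m6A itself.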

Additional observations from a re-analysis of the deposited data

How the results depend on the processing

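The m6A genes had between 327 and 5670 reads per liver, and counting error is part of their spread between livers. Over all genes 11 passed adjusted p 0.05 in edgeR. The count was 824 with DESeq2, 1814 with limma-voom, 46 without a filter on low counts, 0 to 544 with 1 liver left out (0 without *Srsf10-kd* 1, 2 or 4 or *Ctrl* 2, where 2154 to 3656 genes had an unadjusted p under 0.05, 64 for *Srsf10-kd* 3, 544 for *Ctrl* 3, and 4 and 5 when *Ctrl* 1 or *Ctrl* 4 was dropped), and 1342 without both *Srsf10-kd* 3 and *Ctrl* 3. Of the 10 m6A genes, 0 passed in edgeR and 1 (*Virma*) with DESeq2, with limma-voom and without both *Srsf10-kd* 3 and *Ctrl* 3, and 0 to 1 with 1 liver left out, the 1 being *Virma* without *Ctrl* 3. Of the 29 other pathway genes, 0 passed in edgeR, 3 with DESeq2, 4 with limma-voom, 2 without both livers and 0 to 1 with 1 liver left out, the 1 being *Cnot1* without *Ctrl* 3. The cause of these shifts was not tested.

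*Virma* stayed lower in each fit, from -0.65 to -0.50 with 1 liver left out (adjusted p 0.0429 to 0.322) and from -0.60 to -0.36 in the fits with all livers (adjusted p 0.00184 to 0.199). *Mettl3* was at 0.11 with limma-voom, 0.023 without both *Srsf10-kd* 3 and *Ctrl* 3, and -0.10 to 0.068 with 1 liver left out (above 0 when *Srsf10-kd* 2, *Srsf10-kd* 3 or *Ctrl* 4 was dropped). *Mettl14* was at 0.14 and *Alkbh5* at 0.034 with the length trend removed, *Rbm15* at -0.015 with limma-voom, and *Ythdf2* from -0.0051 without *Srsf10-kd* 2 to 0.048 without *Srsf10-kd* 3. With the length trend removed, the difference in log2 ratio turned to 0.25 for *Mettl14*/*Mettl3* and 0.15 for *Alkbh5*/*Mettl3*. *Wtap*, *Zc3h13*, *Cbll1* and *Ythdc1* kept direction and side of the threshold in the 18 alternatives tried.

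The labels do not say that the replicate number pairs the livers. After the group means were subtracted, livers of the same number correlated at -0.18, 0.21, 0.27 and 0.22 for numbers 1 to 4, and 5 of 8 livers correlated best with their own number. This count was not tested and does not settle whether the livers are paired. With the replicate block 59 genes passed, 55 lower and 4 higher, and *Virma* was at -0.60 (adjusted p = 0.0633). With 4 pairs, the exact sign-flip test of the ratios under the block cannot reach 0.05. In 30 groups of 4 livers (10 m6A genes, *Srsf10* and 4 ratios), 0 had a liver beyond Dixon's critical value.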

Other observations

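*Ctrl* 3 was the lowest of the 4 *Ctrl* livers for 8 of the 10 m6A genes, and for 12 of the 29 other pathway genes tested, while it was the highest for 10 of the 29. The reader *Prrc2a* had 37.1 CPM in *Ctrl* 3, while *Ctrl* 1, 2 and 4 ran from 87.8 to 104.8 CPM and the *Srsf10-kd* livers from 56.4 to 83.8 CPM. *Srsf10-kd* 3 was the lowest of its group for 16 of those 29 genes and the highest for 11. These genes were picked after their values were seen. The matching shares over all genes tested were not counted, so these counts cannot be read as particular to the m6A genes. *Srsf10-kd* 3 and *Ctrl* 3 also had the lowest slopes on transcript length of their groups. The part of transcript length in these counts was not tested.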
